A study of Caenorhabditis elegans with 6 samples.

Results

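Genes of Caenorhabditis elegans carry symbols whose prefix names a gene class, either for a mutant phenotype or for similarity of the encoded products. The dbd, idpp and pugs families are 3 such classes, and they were followed here in touch receptor cells that express huntingtin fragments with a long or a short glutamine stretch. Members were all genes whose current symbol begins with dbd-, idpp- or pugs-, with the symbol taken from the gene ID that the array annotation gives for a probe. This rule found 39 genes among the 7477 named genes of the array, namely 15 dbd, 14 idpp and 10 pugs genes. The gene table of the organism lists 47, and dbd-1, dbd-2, dbd-4, dbd-8, dbd-16, idpp-1, idpp-7 and pugs-1 had no named probe and were not analysed here. Each of the 39 genes is represented by 1 probe and has a value on all 6 arrays. The symbols come without a description of the proteins, so no role is stated for any member. The rule itself uses names, but the families had been selected on the log ratios of both comparisons, which were known when they were proposed. These log ratios and all counts made from them are therefore a description and support nothing on their own.

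Touch receptor neurons are the cells through which the worm senses light touch, and the transcription factor gene mec-3 is needed for their identity. Huntingtin is the protein whose glutamine stretch is expanded in Huntington's disease, and expanded stretches make the protein prone to aggregate and disturb transcription in many models. In all 3 kinds of cells used here GFP was driven by the promoter of mec-3. In 128Q cells GFP was fused to an N-terminal huntingtin fragment with the expanded stretch, in 19Q cells to the same fragment with a normal stretch, and in the third kind GFP was expressed alone. The strains were transgenic nematodes, and those with 128Q or 19Q carried integrated transgenes. Embryos from gravid adults were dissociated, the cells were cultured overnight, and GFP-positive cells were sorted before RNA extraction. In the animal the mec-3 promoter is also active in FLP and PVD neurons, so a gate on this GFP is not specific to the touch receptor neurons. Of 32 markers of touch receptor neurons, other neurons, muscle, pharynx, intestine, hypodermis and germ line that were looked up, 0 had a probe that the annotation used here names, so the labelled cell type was not checked against them. Probes without a name may include such genes. In bulk RNA of this kind, fewer cells of a type and less RNA per cell cannot be told apart.

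The data are 6 sets of log ratios from 2-colour Agilent arrays with 22562 probes. In 3 of them RNA of 128Q cells was set over RNA of 19Q cells, and in 3 RNA of 19Q cells was set over RNA of cells with GFP only. Values above 0 mean more RNA in the first-named cells, which were labelled with Cy5. Each set is labelled as a biological replicate, and the number of arrays limits the precision. Their log base is unstated, so values are given in deposited units with no conversion to folds. Both comparisons use RNA of 19Q cells, once below and once above the ratio, so their values are set side by side and not correlated. Across all features, r between replicates was 0.538 to 0.677 in 128Q over 19Q, and 0.744 between replicates 1 and 2 of 19Q over GFP only. Without 246 evenly spaced low probes, which carry no name, r was 0.681 to 0.763 in 128Q over 19Q. Between replicates 1 and 2 of 19Q over GFP only it was then 0.528, so the order of the comparisons was reversed. Replicate 3 of 19Q over GFP only stood apart, with r = 0.113 and 0.010 against replicates 1 and 2, and 0.21 and 0.043 without the low probes. Over the 39 members, which are not independent replicates, its r was 0.564 and 0.334, while replicates 1 and 2 gave 0.349.

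In 128Q cells the members of all 3 families lay mostly below their level in 19Q cells. The median log ratio was -0.66 for the dbd genes, -0.99 for the idpp genes and -0.61 for the pugs genes, beside 0.05 over all 22033 features tested. The mean over 3 arrays was below 0 for 13 of 15 dbd, 11 of 14 idpp and 8 of 10 pugs genes, which makes 32 of 39 members, where 45.6% of all features had a mean below 0. A mean below -1 was found for 17 members, and for 8.37% of all features. The share of members below 0 differed little between arrays, with 32, 33 and 32 of 39 in replicates 1 to 3, while 44.1%, 48.9% and 47.5% of all features were below 0 there.

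**Figure D1:**
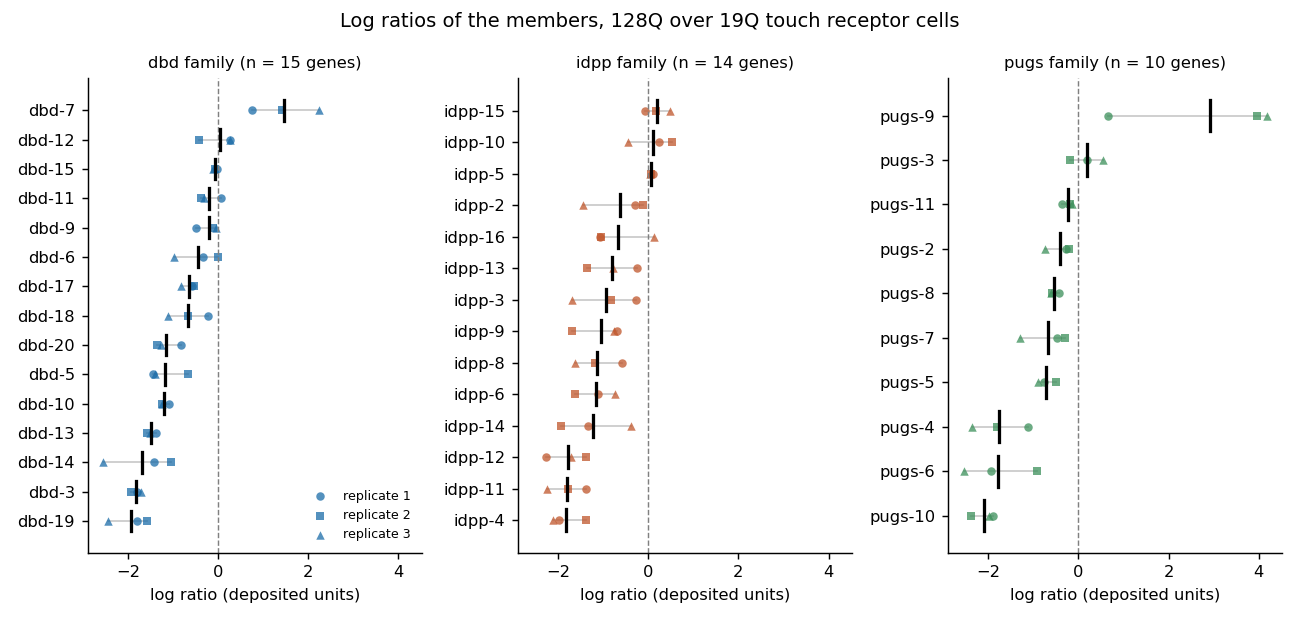
Log ratio of 128Q over 19Q cells in deposited units (x axis) for each gene of the dbd, idpp and pugs families (rows, sorted by mean). Symbols are the 3 replicate arrays, grey lines their range and black bars their mean. Most members lie to the left of 0, and dbd-7 and pugs-9 lie to the right on every array.

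How far the families lay below 0 changed from array to array. The median of the dbd genes was -0.573, -0.658 and -1.111 in replicates 1 to 3. That of the idpp genes was -0.64, -1.27 and -0.77, so these genes were lowest on replicate 2 and the dbd genes on replicate 3. The pugs genes had medians of -0.45, -0.39 and -0.83. Leaving out any 1 of the 3 arrays kept all medians below 0, between -0.88 and -0.56 for dbd, between -1.17 and -0.87 for idpp and between -0.67 and -0.45 for pugs. No array was above 0 in the median of any family.

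The genes of a family also differed among themselves by more than a typical gene differed between arrays. Over the dbd genes the means had an SD of 0.89, where the median SD of a dbd gene over its 3 arrays was 0.28. The corresponding values were 0.68 and 0.51 for the idpp genes and 1.42 and 0.33 for the pugs genes. Over all features tested they were 0.74 and 0.29, so a wider spread over genes than over arrays was not particular to these families. The wide spread of the pugs genes rests on pugs-9, and without it, a choice made after its value was seen, the SD over the remaining 9 genes was 0.79. Without dbd-7 the dbd genes had an SD of 0.68. Without idpp-15, the idpp gene farthest from the family median, the idpp genes had an SD of 0.63. Leaving out the farthest gene favours a lower SD, so these values are a description only.

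Among the dbd genes, dbd-19 (C49F8.3) had the lowest mean. Its log ratios of 128Q over 19Q were -1.796, -1.576 and -2.440 in replicates 1 to 3, with a mean of -1.94 ± 0.45 (SD, n = 3). The values of dbd-3 (F26G1.5) were -1.791, -1.937 and -1.715, with a mean of -1.81 ± 0.11 (SD, n = 3). Both genes were more than 1.5 below 0 on every array. For dbd-14 (ZK1010.4) the log ratios were -1.428, -1.049 and -2.549, so that its mean of -1.68 ± 0.78 (SD, n = 3) was pulled down by replicate 3. The log ratios of dbd-13 (C42D4.3) were -1.378, -1.574 and -1.512, with a mean of -1.49 ± 0.10 (SD, n = 3). Of these genes dbd-3 and dbd-13 varied least between arrays. Between them and 0 lay dbd-10, dbd-5, dbd-20, dbd-18, dbd-17, dbd-6 and dbd-9, with means from -1.19 to -0.21. All of these but dbd-6 were below 0 on all 3 arrays.

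The exception among the dbd genes was dbd-7 (C56C10.4), which was above 0 on every array. Its log ratios of 128Q over 19Q were 0.745, 1.424 and 2.237, with a mean of 1.47 ± 0.75 (SD, n = 3). This mean was higher than that of 97.0% of all features tested, and no other dbd gene had a mean above 0.04. The remaining genes near 0 were dbd-12 (T20G5.12), with 0.258, -0.411 and 0.271, dbd-15 (Y57G11C.42), with -0.029, -0.070 and -0.109, and dbd-11 (T20G5.13), with 0.074, -0.371 and -0.301. The mean of dbd-12, 0.04 ± 0.39 (SD, n = 3), was smaller than its spread, and its sign changed when replicate 1 or replicate 3 was left out or the arrays were centred on their medians. In dbd-15 neither the level of the ratio nor its spread, -0.07 ± 0.04 (SD, n = 3), left the neighbourhood of 0.

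The idpp genes had the lowest median of the 3 families but the narrowest range of means, from -1.83 to 0.20. The lowest was idpp-4 (M02G9.2), with log ratios of 128Q over 19Q of -1.988, -1.375 and -2.122 and a mean of -1.83 ± 0.40 (SD, n = 3). It was followed by idpp-11 (C54D2.1), with -1.373, -1.785 and -2.256 and a mean of -1.81 ± 0.44 (SD, n = 3). The values of idpp-12 (W08E12.3) were -2.273, -1.380 and -1.703, with a mean of -1.79 ± 0.45 (SD, n = 3). The means of these genes lay within 1 SD of each other, so their order is not resolved by the arrays. Replicates of idpp-14 (C30F2.3) disagreed more, with -1.338, -1.936 and -0.379 and a mean of -1.22 ± 0.79 (SD, n = 3). The genes idpp-6, idpp-8, idpp-9, idpp-3, idpp-13, idpp-16 and idpp-2 had means from -1.16 to -0.63, and idpp-16 was the single gene of them with a value above 0 on 1 array. Of these idpp-2 (B0348.5) had log ratios of -0.303, -0.124 and -1.453, the lowest on replicate 3.

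No idpp gene stood as far above 0 as dbd-7. The exceptions were idpp-15 (ZC21.3), with log ratios of -0.062, 0.162 and 0.485, idpp-10 (D1007.13), with 0.240, 0.517 and -0.449, and idpp-5 (F35A5.4), with 0.109, 0.060 and 0.029. Of these idpp-5 was above 0 on all 3 arrays, at 0.07 ± 0.04 (SD, n = 3), which was close to the median of all features. The means of idpp-15 and idpp-10, 0.20 ± 0.28 and 0.10 ± 0.50 (SD, n = 3), were smaller than their spread. Without replicate 2 the mean of idpp-10 was -0.10.

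The pugs family held both the lowest and the highest mean of all 39 members. The lowest was pugs-10 (Y41D4A.1), with log ratios of 128Q over 19Q of -1.903, -2.385 and -1.980 and a mean of -2.09 ± 0.26 (SD, n = 3). Only 0.531% of all features tested had a lower mean. The values of pugs-6 (T01E8.8) were -1.935, -0.914 and -2.531, with a mean of -1.79 ± 0.82 (SD, n = 3), and those of pugs-4 (K08D12.4) were -1.112, -1.808 and -2.355, with a mean of -1.76 ± 0.62 (SD, n = 3). After these 3 genes came a gap, since the next, pugs-5 (R07B1.8), had -0.763, -0.496 and -0.906 and a mean of -0.72 ± 0.21 (SD, n = 3). The genes pugs-7, pugs-8, pugs-2 and pugs-11 followed with means from -0.68 to -0.23, each below 0 on all 3 arrays. The values of pugs-2 (F19H8.2) were -0.286, -0.208 and -0.744.

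The exception among the pugs genes was pugs-9 (W08E12.8), with log ratios of 0.645, 3.952 and 4.187. It was far above 0 on replicates 2 and 3 and much closer to 0 on replicate 1. Its mean of 2.93 ± 1.98 (SD, n = 3) was higher than that of 99.6% of all features tested. The log ratios of pugs-3 (F54B11.4), the other pugs gene with a mean above 0, were 0.179, -0.186 and 0.549. Its mean, 0.18 ± 0.37 (SD, n = 3), fell to -0.0035 without replicate 3.

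Members past the threshold of a moderated test were few. The test was limma on all features, with the mean log ratio tested against 0 and an adjusted p under 0.01 by the Benjamini-Hochberg method. It called dbd-3, dbd-13 and dbd-19 among the dbd genes, idpp-4 among the idpp genes and 0 of the pugs genes, all as lower, where 1.17% of all features were called lower and 1.63% higher. At an unadjusted p under 0.05, limma counted 9 dbd, 9 idpp and 6 pugs genes as lower, where 13.1% of all features were. As higher it counted dbd-7 and pugs-9, where 11.9% of all features were. At an adjusted p under 0.05, 6 dbd, 6 idpp and 3 pugs genes were lower and 1 gene, dbd-7, was higher, where 5.58% of all features were lower and 4.92% higher. Because these log ratios had guided the choice of the families, nothing is read from these counts. Leaving out replicate 1, 2 or 3 of 128Q over 19Q left 0 of all features called by limma, members included, with 3736, 4444 and 3561 at an unadjusted p under 0.05, so this says nothing about the members. Without replicate 3 of 19Q over GFP only, which shares the estimate of the spread, 5 dbd, 3 idpp and 1 pugs genes were called, among 1472 of all features. Without replicate 1 of that comparison 0 members were called, among 195 features, and without its replicate 2 the genes dbd-3, dbd-13 and pugs-10, among 347 features.

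Agreement of the sign over arrays does not rest on the spread estimate. Of the 39 members 29 were below 0 on all 3 arrays of 128Q over 19Q, 11 dbd, 10 idpp and 8 pugs genes, where 25.7% of all features were. Above 0 on all 3 arrays were dbd-7, idpp-5 and pugs-9, where 30.9% of all features were. The remaining 7 members, dbd-6, dbd-11, dbd-12, idpp-10, idpp-15, idpp-16 and pugs-3, had values on both sides of 0.

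**Figure D2:**
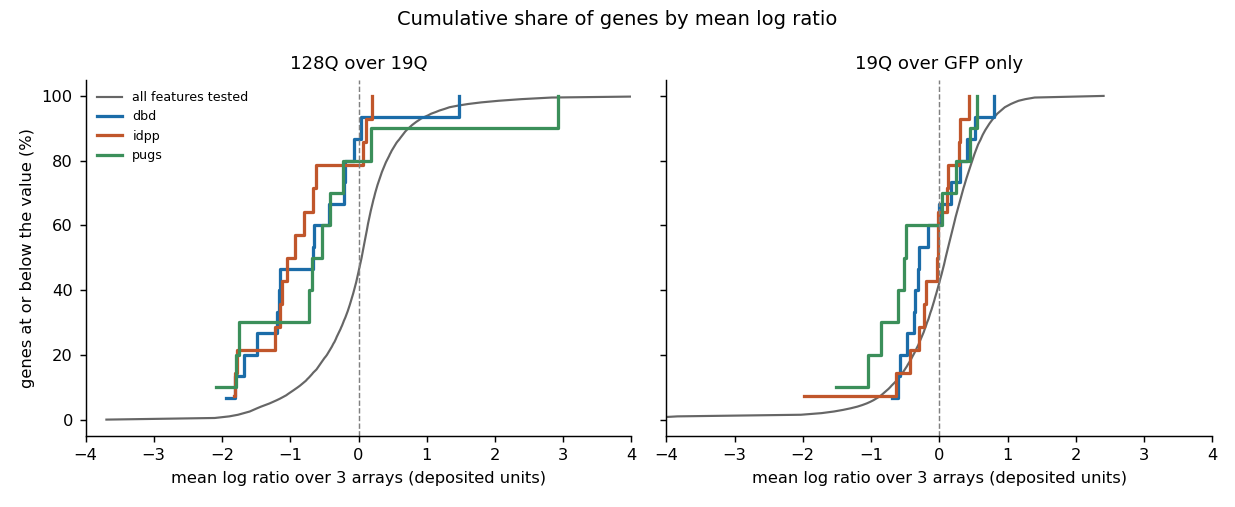
Share of genes (y axis, percent) whose mean log ratio over 3 arrays is at or below the value on the x axis (deposited units), for the dbd, idpp and pugs families and for all features tested, in 128Q over 19Q (left) and 19Q over GFP only (right). The x axis ends at -4 and 4. In 128Q over 19Q the curves of the 3 families lie left of the curve of all features over most of their range and end in the single high genes dbd-7 and pugs-9.

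Compared with cells that express GFP only, 19Q cells had family medians closer to 0 than those above, though by little for the pugs genes. The median log ratio was -0.30 for the dbd genes, -0.03 for the idpp genes and -0.50 for the pugs genes, beside 0.09 over all 21897 features tested. Means below 0 were found for 9 of 15 dbd, 9 of 14 idpp and 6 of 10 pugs genes, where 42.3% of all features had one. The medians on replicates 1 to 3 were -0.182, -0.318 and 0.063 for dbd, 0.015, -0.238 and -0.118 for idpp, and -0.29, -0.51 and -0.22 for pugs. The pugs genes were thus the family with a median below 0 on every array. On replicate 2 their median was lower here than in 128Q over 19Q, where it was -0.39. Without replicate 3, the array that stood apart, the medians were -0.28, -0.05 and -0.61 for dbd, idpp and pugs. Without replicate 2 they were -0.04, 0.12 and -0.25, so the median of the idpp genes changed sign and those of the dbd and pugs genes moved toward 0. Without replicate 1 they were -0.18, -0.19 and -0.54.

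**Figure D3:**
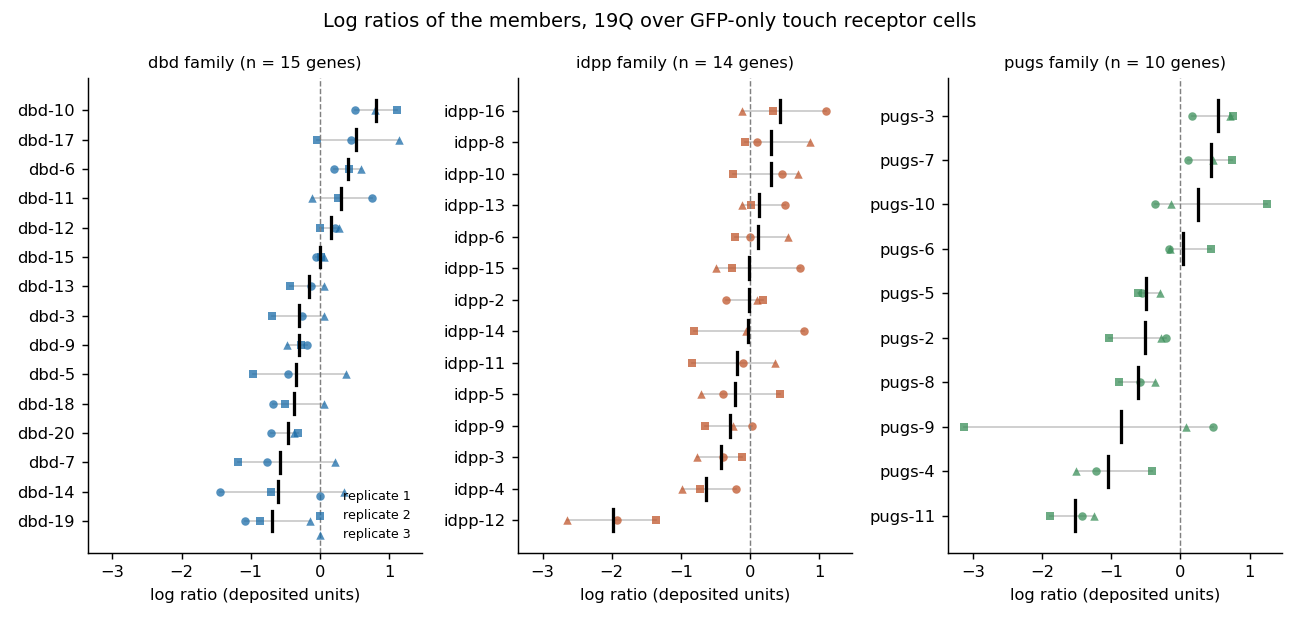
Log ratio of 19Q over GFP-only cells in deposited units (x axis) for each gene of the dbd, idpp and pugs families (rows, sorted by mean). Symbols are the 3 replicate arrays, grey lines their range and black bars their mean. Most members scatter around 0, and idpp-12 and pugs-11 lie below -1 on every array.

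In this comparison dbd-10 (T23F11.6) had the highest mean of all 39 members, with log ratios of 0.504, 1.120 and 0.790 and a mean of 0.80 ± 0.31 (SD, n = 3). It was above 0 on every array here and below 0 on every array of 128Q over 19Q, where its values were -1.089, -1.239 and -1.248. The values of dbd-17 (F53F8.4) were 0.447, -0.039 and 1.144. Those of dbd-6 (F18C5.9) were 0.206, 0.421 and 0.589, and dbd-11 followed with 0.752, 0.267 and -0.112. The last members with a mean above 0 were dbd-12, with 0.223, -0.005 and 0.282, and dbd-15, with -0.060, 0.009 and 0.060, so that dbd-15 was again close to 0. At the low end of the family were dbd-19, with -1.080, -0.863 and -0.149, dbd-14, with -1.444, -0.706 and 0.352, dbd-7, with -0.766, -1.189 and 0.217, and dbd-20 (F35B3.4), with -0.712, -0.318 and -0.368. In each of dbd-19, dbd-14 and dbd-7 replicate 3 was the highest of the 3 values. The means of these genes lay between -0.70 and -0.47, and dbd-19 and dbd-20 were below 0 on all 3 arrays.

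Among the idpp genes a single gene was set apart in 19Q cells. The log ratios of idpp-12 were -1.930, -1.366 and -2.644, with a mean of -1.98 ± 0.64 (SD, n = 3), and only 1.58% of all features tested had a lower mean. The other 13 idpp genes lay between -0.64 and 0.44 and had an SD of 0.31 over genes. The next were idpp-4, with -0.208, -0.724 and -0.982, idpp-3 (F45B8.3), with -0.395, -0.111 and -0.762, and idpp-9 (T22B2.6), with 0.027, -0.654 and -0.251. At the high end were idpp-16 (F35B12.3), with 1.091, 0.334 and -0.116, idpp-8 (M02G9.3), with 0.096, -0.069 and 0.863, idpp-10, with 0.459, -0.255 and 0.684, and idpp-13 (F23H11.6), with 0.504, 0.012 and -0.119. The remaining gene with a mean above 0 was idpp-6 (H22K11.3), with 0.002, -0.220 and 0.545. Each of these 5 genes had a value below 0 on 1 array. For 7 of the 14 idpp genes the sign of the mean changed when some array was left out.

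The pugs genes were the lowest family in 19Q cells, although with exceptions. The values of pugs-11 (Y47D7A.12) were -1.423, -1.878 and -1.256, with a mean of -1.52 ± 0.32 (SD, n = 3). In 128Q over 19Q the same gene was near 0, with -0.367, -0.181 and -0.147. For pugs-4 the log ratios were -1.221, -0.411 and -1.508, with a mean of -1.05 ± 0.57 (SD, n = 3). For pugs-8 (T28D6.3) the values were -0.579, -0.884 and -0.368. The mean of pugs-9, -0.86 ± 1.98 (SD, n = 3), came from a single array, since its log ratios were 0.473, -3.134 and 0.081, and without replicate 2 its mean was 0.28. Above 0 were pugs-3, with 0.167, 0.760 and 0.713, pugs-7 (T21B4.3), with 0.114, 0.750 and 0.469, pugs-10, with -0.362, 1.255 and -0.138, and pugs-6, with -0.165, 0.447 and -0.149. Of these pugs-3 and pugs-7 were above 0 on every array.

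At an adjusted p under 0.01, limma called 0 of the 39 members and 0% of all features in 19Q over GFP only, and the same at an adjusted p under 0.05. At an unadjusted p under 0.05 it counted 8 members as lower and 2, dbd-10 and pugs-3, as higher, where 8.03% of all features were lower and 14% higher. Below 0 on all 3 arrays were 3 dbd, 3 idpp and 5 pugs genes, where 13.3% of all features were. Above 0 on all 3 arrays were dbd-6, dbd-10, pugs-3 and pugs-7, where 27.3% of all features were.

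On the arrays numbered replicate 2, pugs-9 was at 3.952 in 128Q over 19Q and at -3.134 in 19Q over GFP only. On those numbered replicate 3 it was at 4.187 and 0.081, and on those numbered replicate 1 at 0.645 and 0.473. The 19Q RNA stands below the line in the first ratio and above it in the second. The sources do not say whether arrays of the same number shared an extract.

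Other gene families with named probes were set beside these. The neuropeptide-like protein genes (nlp), which encode secreted signalling peptides, had a median of -0.93 in 128Q over 19Q over 25 genes, and the small peptide genes nssp and nspg had -0.67 over 71 genes. These medians lay within the range of those of the dbd, idpp and pugs genes, so a low ratio in 128Q cells was not particular to the latter. In contrast the medians were -0.05 over 29 cest genes and 0.09 over 27 pals genes. Relative to GFP-only cells, 19Q cells had medians above 0 for nlp, nssp with nspg, cest and pals genes, of 0.30, 0.25, 0.27 and 0.31. Those of dbd, idpp and pugs genes were -0.30, -0.03 and -0.50. The sign was not firm for 2 of these, since the idpp median was above 0 on replicate 1 and without replicate 2. The dbd median was above 0 on replicate 3. The difference between families was not tested, since all of them had been chosen with results known.

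**Figure D4:**
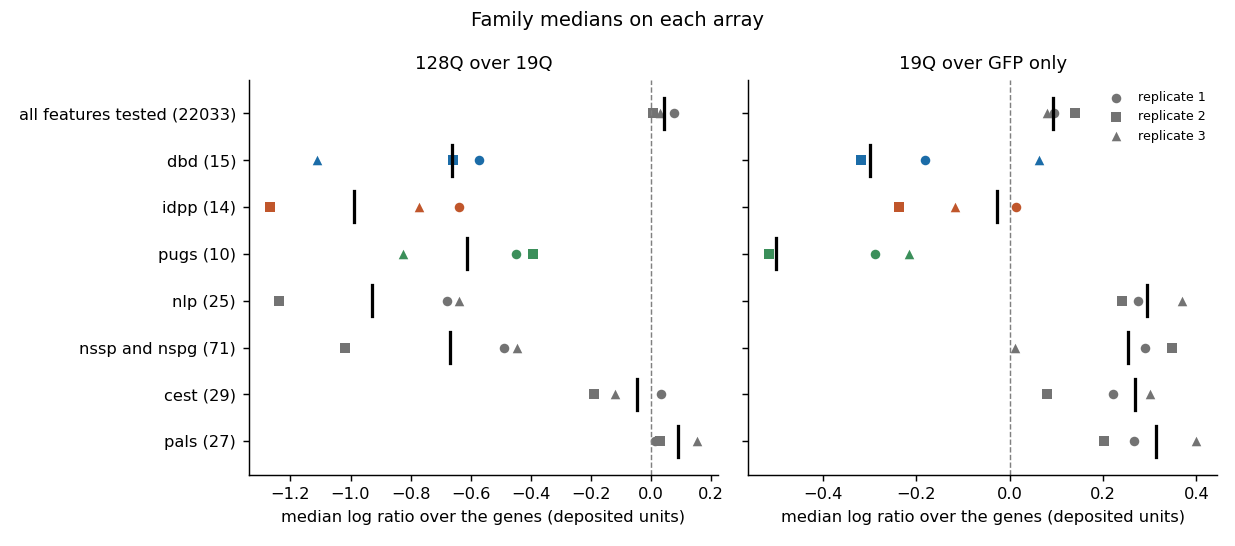
Median log ratio over the genes of each family (x axis, deposited units) on each of the 3 replicate arrays (symbols), in 128Q over 19Q (left) and 19Q over GFP only (right). Black bars are the median of the gene means over 3 arrays, and the numbers of genes are those of 128Q over 19Q. The dbd, idpp and pugs medians lie with nlp and nssp with nspg on the left of the first panel, and their black bars lie below those of the other 4 families in the second.

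In the RefSeq gene table of assembly WBcel235 the members are scattered over the genome. Of the 39 genes 11 lie on chromosome X, 10 on II, 7 on III, 6 on IV, 4 on V and 1 on I. The nearest named genes on either side of the members that belong to none of the 3 families, 71 genes in all, had a median log ratio of -0.17 in 128Q over 19Q, where the members themselves had -0.72. Of these flanking genes 40 had a mean below 0, and 28 were below 0 on all 3 arrays, where 45.6% and 25.7% of all features were. By family, the flanking genes of dbd, idpp and pugs had medians of 0.09, -0.20 and -0.30, so the pooled median hides a difference between families. Their pooled median in 19Q over GFP only was 0.10, beside -0.19 for the members, and by family it was 0.12, 0.17 and -0.31. The difference between flanking genes and members was not tested.

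A locus on chromosome IV holds pugs-9 and idpp-12, which are separated by 4 protein-coding genes and had log ratios of opposite sign in 128Q over 19Q. Between and beside them, W08E12.6 had log ratios of -1.619, -2.089 and -3.144 and W08E12.2, next to idpp-12, had -2.495, -2.852 and -2.629. W08E12.4 had -2.896 and -1.387 on replicates 1 and 2 and no value on replicate 3. W08E12.9, the last gene that was looked at, had -0.532, -1.356 and -1.126. W08E12.7 and W08E12.5, which also lie between the members, have no named probe. With idpp-12 the neighbours named above that have values lay below 0 on every array with a value, while pugs-9 was above 0 on every array. On the other side of pugs-9 the nearest named gene was T26C12.2, with 3 protein-coding genes between. Its log ratios of 128Q over 19Q were -0.668, -0.146 and 0.028, so it was not below 0 on every array. On the arrays of 19Q over GFP only, W08E12.6 had -1.872, -1.948 and -0.697 and W08E12.2 had -2.109, -1.829 and -0.003, close to idpp-12 on replicates 1 and 2. On replicate 3 idpp-12, at -2.644, was well below both. In contrast W08E12.9 was above 0 on every array of 19Q over GFP only, with 0.017, 0.190 and 1.225. Whether the probes of these neighbours also bind each other's RNA was not tested, because no sequences were used here.

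**Figure D5:**
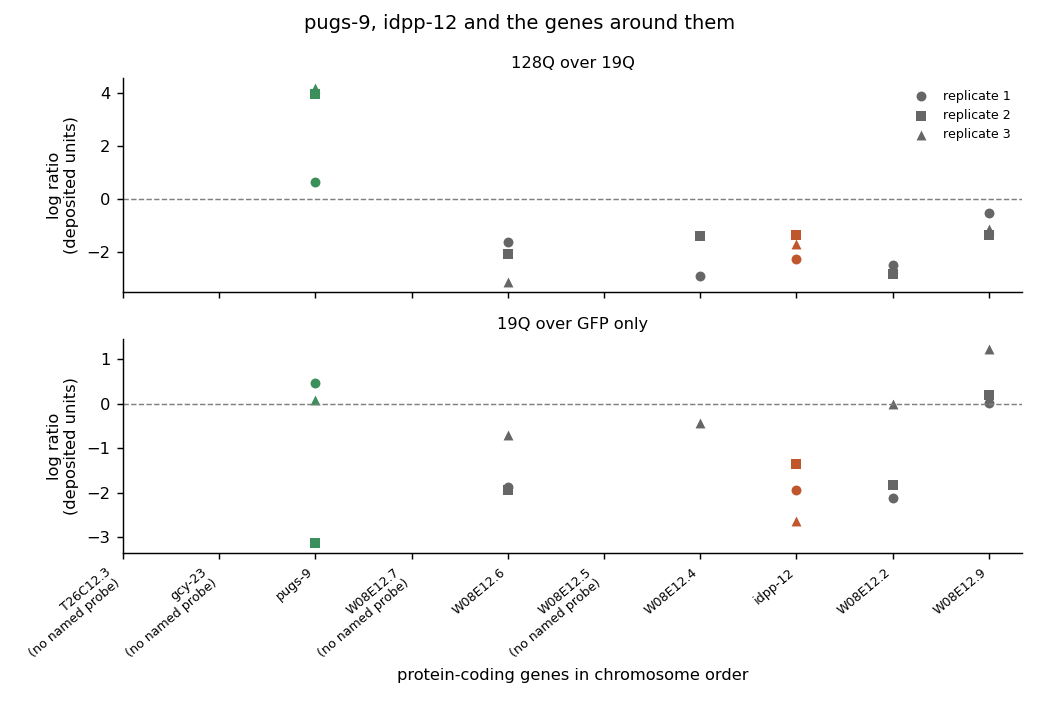
Log ratios (y axis, deposited units) of pugs-9 (green), idpp-12 (orange) and neighbouring genes (grey) in chromosome order, with the 3 replicate arrays as symbols, in 128Q over 19Q (top) and 19Q over GFP only (bottom). Genes without a named probe are marked and have no symbol. In the upper panel pugs-9 is above 0 and all other genes with a value are below 0.

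A second locus, on chromosome II, holds idpp-8 and idpp-4 with 1 protein-coding gene, M02G9.4, between them. The gene before idpp-8, srlf-34, had log ratios of 128Q over 19Q of -1.722, -1.203 and -2.182. The gene after idpp-4, appg-1, had -2.741, -2.733 and -3.592, lower than either member on every array. M02G9.4 has no named probe, and the other genes of this locus, idpp-8, idpp-4, srlf-34 and appg-1, were below 0 on all 3 arrays of this comparison. On the arrays of 19Q over GFP only, idpp-8, srlf-34 and appg-1 had values on both sides of 0, and idpp-4 was below 0 throughout.

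Further members that lie close together were near 0, had means of opposite sign or were both low. The genes dbd-6 and dbd-7, with 5 protein-coding genes between them, had means of -0.44 and 1.47 in 128Q over 19Q, and C56C10.6, which directly precedes dbd-7, had -0.06 ± 0.21 (SD, n = 3). The nearest named gene on the other side of dbd-7, C56C10.9, with 3 protein-coding genes between, had log ratios of 1.738, 1.194 and 1.186 and was also above 0 on every array. The adjacent genes dbd-11 and dbd-12 had means of -0.20 and 0.04. The genes pugs-4 and pugs-10, with 12 protein-coding genes between them, were both low in 128Q over 19Q, at -1.76 and -2.09. The 5 named genes between these, ptpn-22, Y41D4A.6, Y41D4A.4, Y41D4A.7 and Y41D4A.3, had means from -0.33 to 0.77. The means of pugs-4 and pugs-10 in 19Q over GFP only were -1.05 and 0.25.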

How the data were processed

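Per the labels and the supplementary methods, RNA was amplified linearly in 1 round, labelled with Cy3 and Cy5, hybridised to 2-colour Agilent arrays, read with a GenePix scanner and tested with VarMixt and an FDR correction, under 0.01 in a table legend. Each of 3 experiments had a dye swap. How background, normalization, log base and swaps were handled is unstated. The values that the authors deposited were used as scores, that is log ratios of unknown base centred near 0. Whether replicates were separate cultures is not stated beyond 3 independent experiments, so p-values measure the spread between these arrays.

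Of the probes, 7718 have 1 symbol in the platform annotation, 0 several and 14844 none, and 7691 matched the gene table by gene ID. Probes of a gene were averaged. Both comparisons were fitted together in limma 3.58.1 (R 4.3.3, statmod 1.5.0), 1 coefficient each, on genes with values on all 3 arrays, and p-values were adjusted over all features. In simulated data for 128Q over 19Q, with 200 of 21642 genes changed by 1, 2 or 4 units, the fit recovered 0, 74 and 170, with 0, 0 and 1 false calls. The simulated noise was normal and independent between genes and arrays, unlike real arrays, so these counts do not give the recovery or false calls in the data.

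Members, lists and alternatives were chosen with earlier results of these data known. Values on each array are printed for the 4 highest and 4 lowest means per family and comparison, for called genes and for exceptions to the sign of the family median, of which the rule took the 4 farthest from 0, with dbd-12, dbd-15 and idpp-6 in 19Q over GFP only added after their values were seen. Genes at shared loci, beside dbd-7 and beside pugs-9 were named after their values were seen. The families nspa, nspb, nspc, nspd, nspe, fip, scrm, ttr, fipr, cnc, grd, wrt, col, clec and cutl had 0 named genes and were not analysed here. Alternatives were separate fits, robust moderation, centring, centring with scaling, 2 of 3 values, single probes, no evenly spaced low probes (246 unnamed probes), an adjusted p under 0.05, a replicate block and leaving out each array.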

Additional observations from a re-analysis of the deposited data

How the results depend on the processing

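The medians of the 3 families kept their sign under centring (-0.70, -1.03 and -0.65 for dbd, idpp and pugs in 128Q over 19Q) and under centring with scaling (-0.75, -1.13 and -0.68). In 19Q over GFP only, leaving out each array gave -0.299 to -0.044 for dbd, -0.189 to 0.121 for idpp, whose sign was reversed without replicate 2, and -0.606 to -0.249 for pugs. The cause was not tested.

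Calls in 128Q over 19Q (616 of all features, and 3 dbd, 1 idpp and 0 pugs genes) moved most. An adjusted p under 0.05 gave 2313, 7, 6 and 3 by its construction. The replicate block gave 204 of all features, 0 dbd and 0 idpp genes. Centring gave 1 pugs gene among 632 features, and centring with scaling gave 3 idpp and 2 pugs genes among 842. Fitting the comparison alone gave 0 idpp and 1 pugs genes among 451, and leaving out the low probes gave 3 and 1 among 782. With each array left out in turn there were 0 to 1472 of all features, 0 to 5 dbd, 0 to 3 idpp and 0 to 1 pugs genes. In 19Q over GFP only, 0 were called under every alternative run. At an unadjusted p under 0.05, limma counted 4825 features in the main fit and 2542 to 5808 under the alternatives. For these counts the cause was not tested.

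The sources do not say that a replicate number marks a shared experiment. Over all features, deviations from the comparison mean gave r = 0.43, -0.13 and 0.335 between same-numbered arrays, and -0.0432, -0.000476 and 0.00347 without the low probes. Of the 6 arrays 4 correlated best with their own number, with the low probes included. Whether the numbers pair arrays is not settled by this. Since the sources state no pairing, the replicate block stayed an alternative. Signal over background is unknown.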
